A study of Mus musculus with 6 samples.

Results

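LC3 and GABARAP proteins with the receptors that bind them were followed as 10 transcripts in RNA from haematopoietic stem cells (HSCs) of control and MaeaCsf1r-Cre mice. The 10 genes were found by their symbols among the 46959 rows of the deposited expression table, each in 1 row, and comprised 5 genes of the LC3 and GABARAP family (*Map1lc3a*, *Map1lc3b*, *Gabarap*, *Gabarapl1* and *Gabarapl2*) and 5 receptor genes (*Sqstm1*, *Nbr1*, *Optn*, *Calcoco1* and *Tax1bp1*). There were 6 libraries, 3 from control littermates and 3 from MaeaCsf1r-Cre mice, at 8 weeks of age. Each library held 2000 sorted bone marrow HSCs pooled from a pair of mice. MaeaCsf1r-Cre mice carry floxed alleles of *Maea*, which encodes a subunit of an E3 ubiquitin ligase complex, and the iCre recombinase under the *Csf1r* promoter, backcrossed to C57BL/6. That promoter drives Cre in macrophages and their precursors, and the study found recombination in HSCs as well. The labels name the control littermates no further, and the study's controls include floxed mice without Cre and, in a transplantation, heterozygous floxed mice with Cre. None of the 10 transcripts differed detectably between the groups at the threshold used, and 9 of 10 had a lower mean log2 expression in MaeaCsf1r-Cre HSCs, against 60.9% of all genes tested.

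In macroautophagy a double membrane closes around cytoplasmic cargo and delivers it to the lysosome. LC3 and GABARAP proteins are small ubiquitin-like proteins that ATG4 proteases trim to a C-terminal glycine, after which the ATG7, ATG3 and ATG12-ATG5-ATG16L1 machinery joins them to phosphatidylethanolamine on the growing membrane. Receptors hold cargo, often marked with ubiquitin, on one side and lipidated LC3 or GABARAP on the other, and many are themselves degraded with the cargo. HSCs depend on autophagy for their maintenance, and the study asked about autophagy in HSCs of mice with *Maea* deleted. RNA measures the supply of these transcripts and not lipidation or flux.

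The coding ends of the 5 LC3 and GABARAP genes are shown because they hold the site at which the precursors are trimmed and because they show how far the transcripts differ in sequence, which bears on whether their reads can be told apart. Each line gives the last 60 coding bases, 5′ to 3′ with the stop codon, of 1 GENCODE vM21 transcript per gene, on the plus strand of GRCm38, at chr2:155277578-155277637, chr8:121596711-121596770, chr11:69994465-69994524, chr6:129541108-129541167 and chr8:111952346-111952405 in the order printed. Capitals mark the last in-frame codon for glycine.
Map1lc3a: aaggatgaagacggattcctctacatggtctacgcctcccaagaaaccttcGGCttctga
Map1lc3b: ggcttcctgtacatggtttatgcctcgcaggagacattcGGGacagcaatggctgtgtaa
Gabarap: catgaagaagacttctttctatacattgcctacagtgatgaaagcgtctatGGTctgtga
Gabarapl1: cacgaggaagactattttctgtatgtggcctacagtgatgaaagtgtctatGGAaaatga
Gabarapl2: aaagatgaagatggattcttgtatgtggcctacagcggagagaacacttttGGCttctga

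In *Map1lc3b* 5 codons lay between the glycine codon and the stop, and in each of the other 4 genes there was 1. The coding sequences were 366 bases long in *Map1lc3a*, 378 in *Map1lc3b* and 354 in each of the 3 GABARAP genes. *Map1lc3a* and *Map1lc3b* were identical at 76.5% of aligned coding bases, *Gabarap* and *Gabarapl1* at 74.9%, *Gabarapl1* and *Gabarapl2* at 63.8%, and LC3 against GABARAP genes at 53.4 to 60.6%. The longest run of identical bases between any pair was 17, so no 50-base stretch of coding sequence was shared within the family.

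Reads of processed pseudogenes and of overlapping genes were less easily told apart. *Map1lc3b* shared 6.01% of its 50-base stretches with transcripts of other genes, among them the processed pseudogene *Gm6055*, which was listed at 14.0 to 20.1 CPM (counts scaled to a common library total). *Gabarapl2* shared 12.2%, mostly with the processed pseudogene *Gm3724*, listed at 8.67 to 10.1 CPM. Summed over the pseudogenes matched to each gene, their CPM were 6.69 to 8.10% of those of *Map1lc3b* and 18.6 to 22.3% of those of *Gabarapl2*. These are the CPM assigned to the pseudogenes. How many reads were counted in the wrong gene of such a pair was not measured, so both values are uncertain. *Gabarapl1* shared 23.1% with *1700101I11Rik* and *Sqstm1* 15.5% with *Mrnip*, each on the opposite strand. Those partners had 0.809 to 1.64% and 2.91 to 4.92% of the CPM of *Gabarapl1* and *Sqstm1*, *Mrnip* being listed as *3010026O09Rik*, a synonym in RefSeq's gene table. *Map1lc3a*, *Gabarap* and *Nbr1* shared no 50-base stretch with another gene.

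Depth was estimated from the steps between low CPM values. By this estimate the libraries were scaled to 32968000 to 39614000 reads in control and 44159000 to 60937000 in MaeaCsf1r-Cre samples. Every MaeaCsf1r-Cre library was then deeper than every control library. At these depths 3 reads are worth 0.0492 to 0.0910 CPM, as far as counting error goes, and the lowest value of any of the 10 genes was 5.30 CPM. In replicates 1, 2 and 3, *Maea* was listed at 108, 116 and 123 CPM in control and at 76.9, 88.6 and 101 CPM in MaeaCsf1r-Cre libraries, lower in every MaeaCsf1r-Cre library. Each library is one pool of sorted cells, and the p-values measure the spread between these pools. Among the genes that mark HSCs, *Kit* was present at 608 ± 80.4 CPM in control and 468 ± 86.2 CPM in MaeaCsf1r-Cre libraries (SD, n = 3 each), and the summed CPM of 8 such genes were 981 to 1540 in control and 668 to 1227 in MaeaCsf1r-Cre libraries. With the replicate number as a block in limma 6 of the 8 were lower and 1 was higher at an unadjusted p under 0.05, against 13.9% of all genes. Without the block 0 of the 8 were under 0.05 unadjusted, against 3.99%. At an adjusted p under 0.05 there were 0 of 8, and 0 had groups that did not overlap, against 8.55%. By the mean log2 change 6 of the 8 were lower and 2 higher, *Ly6a* at 0.23 and *Slamf1* at 0.18. The part of these differences in the values of the 10 genes was not tested. In bulk RNA, fewer cells of a type and less RNA per cell cannot be told apart.

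Values of single libraries are given below in the order of replicates 1, 2 and 3. The labels do not say that libraries of the same number share a litter, day or batch. Pairs below are libraries of the same number in each group. LC3 transcripts differed widely in abundance but not detectably by genotype. *Map1lc3b*, which encodes the LC3 protein most often used as a marker of autophagosomes, lies at chr8:121590361-121598760. It was expressed at 258, 326 and 258 CPM in control and at 197, 236 and 299 CPM in MaeaCsf1r-Cre libraries. The highest value was that of control replicate 2 and the lowest those of MaeaCsf1r-Cre replicates 1 and 2, while MaeaCsf1r-Cre replicate 3 stood above both other controls, so the groups overlapped. The means were 280.3 ± 39.2 CPM and 244 ± 51.2 CPM (SD, n = 3 each). On the log2(CPM + 1) scale the change was -0.21 with a standard error of 0.18 and a 95% interval of -0.62 to 0.20 (limma, adjusted p = 0.967). It was -0.068 without MaeaCsf1r-Cre replicate 1, -0.098 without control replicate 2 and -0.37 without MaeaCsf1r-Cre replicate 3.

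*Map1lc3a*, on chr2:155276297-155278073, encodes the closely related LC3A and was the least abundant LC3 or GABARAP transcript. Its values were 6.37, 9.79 and 9.38 CPM in control and 5.30, 9.83 and 8.91 CPM in MaeaCsf1r-Cre libraries. Replicate 1 was the lowest library of each group and replicate 2 the highest, and the groups overlapped. The change was -0.096 on the log2 scale (95% interval -0.72 to 0.53, limma adjusted p = 0.981). At the depth estimated for each library its values correspond to 210 to 434 reads.

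GABARAP transcripts showed the smallest spread of the family. *Gabarap*, at chr11:69991143-69994951, gave 107, 128 and 111 CPM in control and 109.7, 113 and 116 CPM in MaeaCsf1r-Cre libraries. All 3 MaeaCsf1r-Cre values lay inside the control range. The within-group SD of 0.099 on the log2 scale was at the 7.06th percentile of all genes tested, whose median SD was 0.24. The difference was -0.025 with a standard error of 0.12, and its 95% interval ran from -0.29 to 0.24 (limma adjusted p = 0.984).

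*Gabarapl1*, on chr6:129533160-129542346, encodes the member often called GEC1. It was measured at 99.6, 144 and 132 CPM in control and 97.8, 121 and 117 CPM in MaeaCsf1r-Cre libraries. Each MaeaCsf1r-Cre library was below the control library of the same number, by log2 differences of -0.026, -0.24 and -0.18, yet control replicate 1 was lower than MaeaCsf1r-Cre replicates 2 and 3. The mean change was -0.15 with a 95% interval of -0.53 to 0.23 (limma adjusted p = 0.967). It was -0.040 without control replicate 2, -0.055 without MaeaCsf1r-Cre replicate 1 and -0.30 without control replicate 1.

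*Gabarapl2*, at chr8:111940703-111953612, encodes GATE-16, first described in transport within the Golgi. Control libraries were close together at 57.2, 54.5 and 56.2 CPM. MaeaCsf1r-Cre replicates 1 and 2 were below all of them at 45.2 and 46.0 CPM, and replicate 3 was at 56.6 CPM, within the control range. The change was -0.19 (95% interval -0.50 to 0.12, limma adjusted p = 0.967), and it was -0.15 when the CPM of the pseudogenes were added to the gene. Without MaeaCsf1r-Cre replicate 3 it was -0.29.

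**Figure D1:**
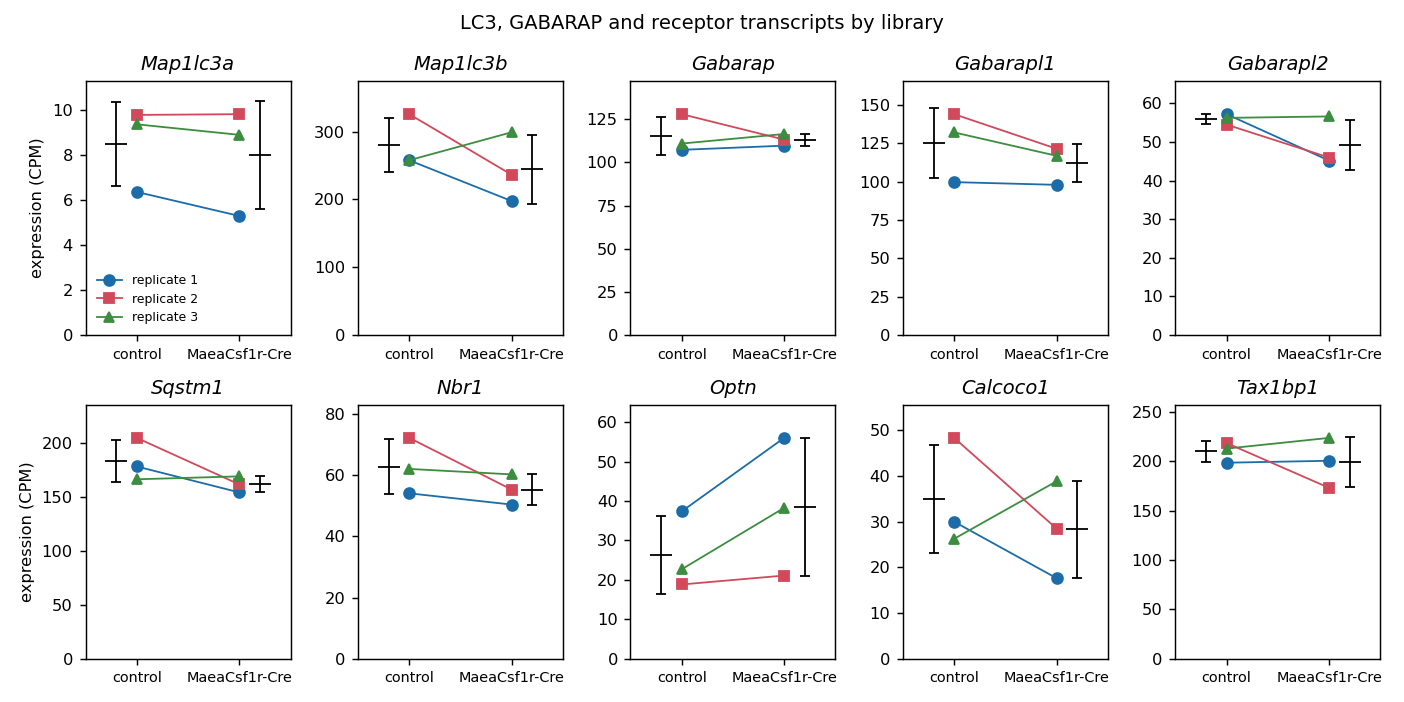
Expression in CPM (vertical axes, each starting at 0) of the 10 genes in control and MaeaCsf1r-Cre libraries. Points are single libraries, lines join libraries with the same replicate number, and the black bars give the mean and SD of 3 libraries. In every panel the values of the groups overlap, and Optn is the gene for which all 3 lines go up.

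The receptor transcripts were lower on average in MaeaCsf1r-Cre libraries for 4 of 5 genes, with *Optn* the exception. *Sqstm1*, on chr11:50199366-50210827, encodes p62, which binds ubiquitin and LC3 and assembles into condensates that are engulfed whole. It was found at 178, 204 and 166 CPM in control and at 154, 161 and 169 CPM in MaeaCsf1r-Cre libraries. Only MaeaCsf1r-Cre replicate 3 and control replicate 3 kept the groups from separating, at 169 against 166 CPM. The means were 183 ± 19.6 CPM and 161 ± 7.42 CPM (SD, n = 3 each). The difference was -0.17 with a standard error of 0.12 and a 95% interval of -0.45 to 0.10 (limma adjusted p = 0.967), and it was -0.092 without control replicate 2.

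*Nbr1*, at chr11:101552149-101581951, encodes a receptor that binds p62 and shares its domain plan. Its values were 54.0, 72.1 and 62.0 CPM in control and 50.3, 55.2 and 60.2 CPM in MaeaCsf1r-Cre libraries. As for *Gabarapl1*, every MaeaCsf1r-Cre library was below its same-numbered control, and control replicate 1 lay below MaeaCsf1r-Cre replicates 2 and 3. The change was -0.17 (95% interval -0.51 to 0.17, limma adjusted p = 0.967). Without control replicate 2 it was -0.069, without MaeaCsf1r-Cre replicate 1 it was -0.11 and without control replicate 1 it was -0.27. *Gabarapl1* and *Nbr1* were the 2 of 10 genes that were lower in all 3 pairs, against 23.5% of all genes tested.

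*Tax1bp1*, on chr6:52713729-52766780, encodes a ubiquitin-binding receptor related to NDP52. It was expressed at 199, 218 and 213 CPM in control and at 200.5, 173 and 224 CPM in MaeaCsf1r-Cre libraries. The lowest and the highest of the 6 values were both from MaeaCsf1r-Cre libraries. The change was -0.083 with a 95% interval of -0.38 to 0.21 (limma adjusted p = 0.968).

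*Optn* and *Calcoco1* had the largest spread within groups. *Optn*, at chr2:5020642-5064051, encodes optineurin, a receptor for damaged mitochondria and bacteria that the kinase TBK1 phosphorylates. Its values were 37.4, 18.8 and 22.7 CPM in control and 56.0, 21.1 and 38.3 CPM in MaeaCsf1r-Cre libraries. Each MaeaCsf1r-Cre library was above its same-numbered control, by log2 differences of 0.57, 0.16 and 0.73, but MaeaCsf1r-Cre replicate 2 was below control replicates 1 and 3. The means were 26.3 ± 9.77 CPM and 38.5 ± 17.5 CPM (SD, n = 3 each).

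Without regard to the replicate number the log2 change of *Optn* was 0.49 with a standard error of 0.37 and a 95% interval of -0.37 to 1.34 (limma adjusted p = 0.967). With the replicate number as a block the standard error was 0.14 and the interval 0.15 to 0.82, with an unadjusted p of 0.0109 and an adjusted p of 0.265 from limma. *Optn* was then 1 of 10 genes with an unadjusted p under 0.05, where 13.9% of all genes tested were below that value. It was also the 1 gene of 10 higher in all 3 pairs, against 13.2% of all genes. Leaving out MaeaCsf1r-Cre replicate 1 gave 0.17, and leaving out control replicate 2 gave 0.28. The change was 0.76 without control replicate 1 and 0.85 without MaeaCsf1r-Cre replicate 2.

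*Calcoco1*, on chr15:102706777-102722178, encodes a receptor for fragments of the endoplasmic reticulum and Golgi. It was found at 30.0, 48.3 and 26.2 CPM in control and at 17.6, 28.4 and 38.8 CPM in MaeaCsf1r-Cre libraries. Replicate 3 went up from control to MaeaCsf1r-Cre and replicates 1 and 2 went down. The change was -0.31 with a 95% interval of -1.05 to 0.43 (limma adjusted p = 0.967), and it was -0.017 without MaeaCsf1r-Cre replicate 1, -0.056 without control replicate 2, -0.48 without control replicate 3 and -0.57 without MaeaCsf1r-Cre replicate 3. The within-group SD was at the 88.3rd percentile of all genes tested for *Calcoco1* and at the 93.7th for *Optn*.

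Read together, 0 of 10 genes had an adjusted p under 0.05 by limma, with or without the replicate block, against 0.00772% of the 12955 genes tested in either case. At an unadjusted p under 0.05 there were 0 of 10 without the block, against 3.99% of all genes. No gene of the 10 had groups that did not overlap, against 8.55% of all genes. The median change of the 10 was -0.16 and that of all genes tested -0.058. That median moved with single libraries, to -0.055 without control replicate 2 and to -0.061 without MaeaCsf1r-Cre replicate 1. All 10 genes passed the filter on low values.

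**Figure D2:**
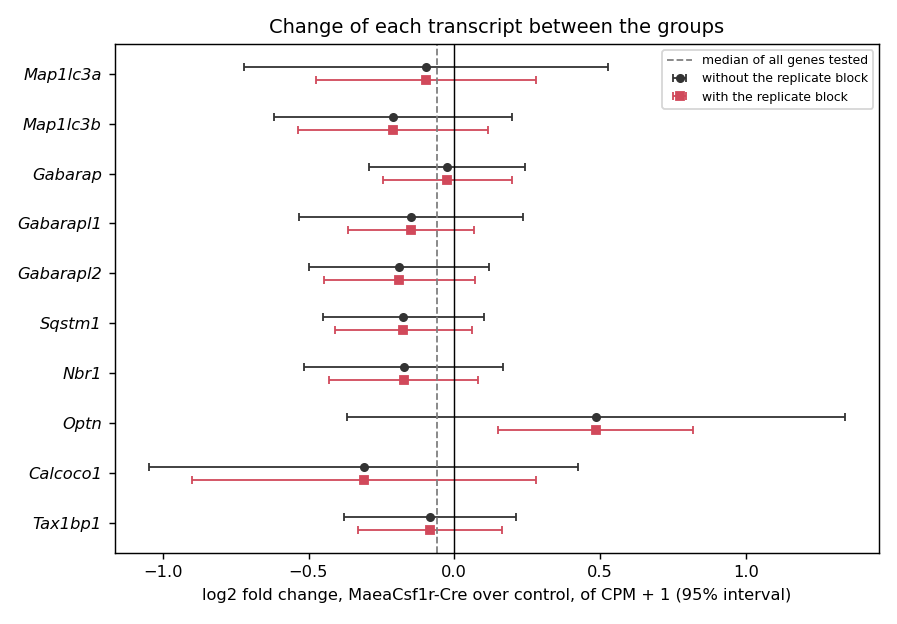
Log2 fold change of CPM + 1, MaeaCsf1r-Cre over control, for each of the 10 genes, with 95% intervals from limma without (black circles) and with (red squares) the replicate block. The dashed line is the median of all genes tested, -0.058. All black intervals include 0, and the red interval of Optn, 0.15 to 0.82, is the only one of the 20 drawn that does not.

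Deviations went together by library in most of the genes. In control replicate 2, 9 of 10 genes stood above their own mean over the 6 libraries, with *Optn* the exception at -0.64, and the median deviation of the 10 was 0.25 on the log2 scale. In MaeaCsf1r-Cre replicate 1 the converse held, with *Optn* alone above its mean at 0.88 and a median deviation of -0.21. MaeaCsf1r-Cre replicate 3 had 8 of 10 genes above their means with a median of 0.12, and MaeaCsf1r-Cre replicate 2 had 2 of 10 with a median of -0.085. Control replicates 1 and 3 had 3 and 5 genes above, with medians of -0.022 and 0.028. The deviations of a gene sum to 0 over the 6 libraries, so these values are a description of how the libraries differ and were not tested.

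**Figure D3:**
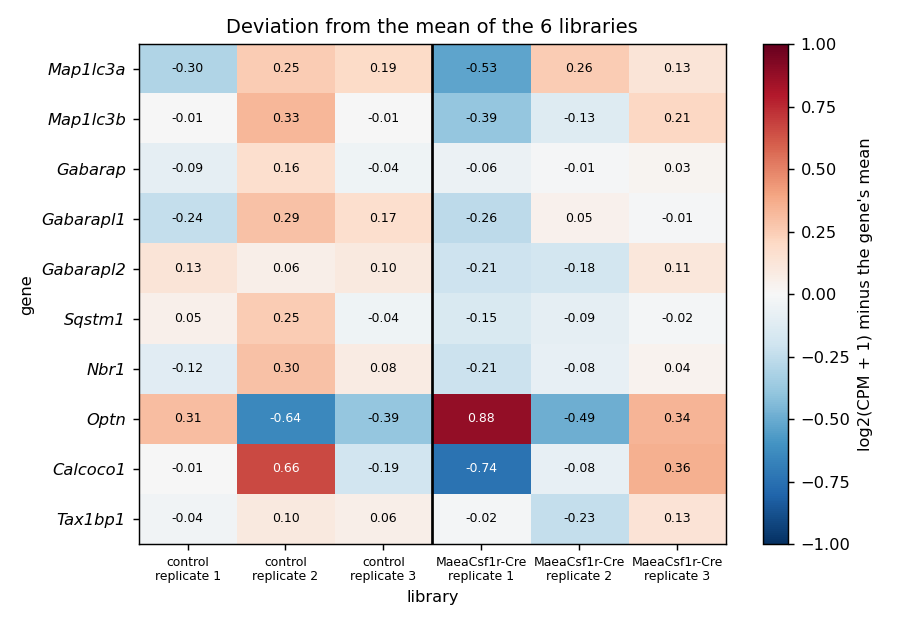
Deviation of log2(CPM + 1) from the gene's mean over the 6 libraries, with genes in rows, libraries in columns and the values printed in the cells (red above, blue below the mean). Control replicate 2 is above the mean in all rows but Optn (-0.64) and MaeaCsf1r-Cre replicate 1 is below it in all rows but Optn (0.88).

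Levels of different genes were compared per length, as CPM per kilobase of the union of annotated exons. On this scale the means of the 6 libraries were 61.9 for *Gabarap*, 58.9 for *Gabarapl1*, 51.3 for *Sqstm1*, 34.9 for *Map1lc3b*, 22.6 for *Gabarapl2* and 20.5 for *Tax1bp1*. The 4 lowest were *Optn* at 8.63, *Nbr1* at 8.58, *Map1lc3a* at 7.00 and *Calcoco1* at 5.51 CPM per kilobase. Ranges of neighbours did not overlap at 3 steps of this order, from *Sqstm1* to *Map1lc3b*, from *Map1lc3b* to *Gabarapl2* and from *Tax1bp1* to *Optn*, and at the other steps they did.

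The order depended on the length chosen. The exon union was longer than the principal transcript by most for *Map1lc3b*, at 7517 against 2532 bases, and *Tax1bp1*, at 9991 against 3285 bases. Per kilobase of principal transcript *Map1lc3b* came first with 104, followed by *Gabarap* and *Sqstm1* with 84.5 each, *Gabarapl1* with 65.1, *Tax1bp1* with 62.3 and *Gabarapl2* with 31.4. *Optn* then had 12.4, *Nbr1* 12.3, *Calcoco1* 11.2 and *Map1lc3a* 7.43 CPM per kilobase. Ranges of neighbours did not overlap here at 2 steps, from *Tax1bp1* to *Gabarapl2* and from *Gabarapl2* to *Optn*. On either scale the same 4 genes, *Optn*, *Nbr1*, *Calcoco1* and *Map1lc3a*, were the lowest, and *Gabarap*, *Gabarapl1* and *Sqstm1* were above *Tax1bp1* and *Gabarapl2* by their means. The receptors p62 and NBR1, which bind each other, thus differed in transcript level per kilobase by 51.3 against 8.58 on the exon union.

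**Figure D4:**
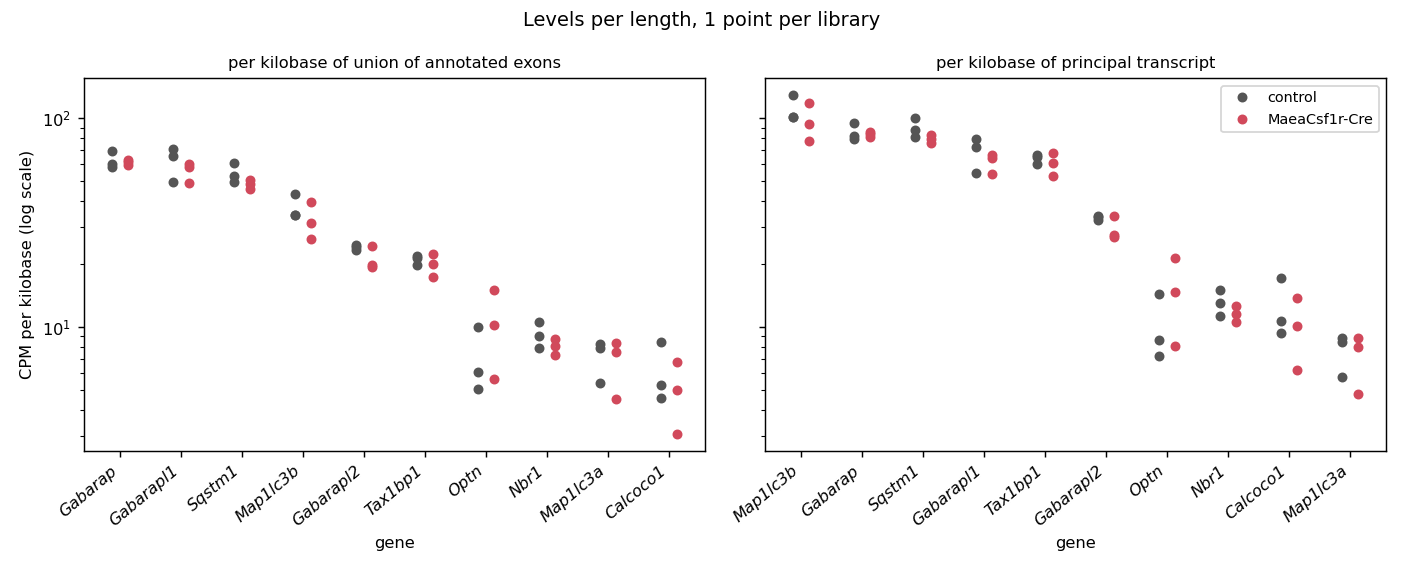
CPM per kilobase on a log scale, 1 point per library, for control (grey) and MaeaCsf1r-Cre (red) libraries, with genes ordered by their mean. The left panel divides by the union of annotated exons and the right panel by the principal transcript. Map1lc3b moves from 34.9 on the left to 104 on the right, and the same 4 genes have the lowest means in both panels.

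Ratios of one transcript to another within a library cancel any factor common to the library. *Gabarap* to *Gabarapl2* was 1.88, 2.35 and 1.97 in control and 2.43, 2.46 and 2.06 in MaeaCsf1r-Cre libraries. It was higher in each MaeaCsf1r-Cre library than in its same-numbered control, with a mean log2 difference of 0.17 and overlapping groups (exact permutation test over 20 labellings, two-sided p = 0.2). Leaving out single libraries gave 0.10 to 0.26, the lowest without control replicate 1 and the highest without control replicate 2. *Sqstm1* to *Nbr1* was 3.29, 2.83 and 2.68 in control and 3.06, 2.92 and 2.80 in MaeaCsf1r-Cre libraries, a log2 difference of 0.00067 (exact p = 1). The log2 ratio of *Map1lc3a* to *Map1lc3b* differed by 0.099 (exact p = 0.7), that of *Gabarapl1* to *Gabarapl2* by 0.043 (exact p = 1) and that of *Sqstm1* to *Map1lc3b* by 0.035 (exact p = 0.9). Adjusted over the 5 ratios each p was 1, and the smallest p that 3 against 3 libraries allow is 0.1.

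Other genes of the same pathway were counted in 4 groups. Of 20 symbols of other autophagy receptors, which name *Retreg1* also as *Fam134b*, 17 were tested and 0 had an adjusted p under 0.05 in either limma fit, with 0 at an unadjusted p under 0.05 without the block. With the block 4 of 17 were under 0.05 unadjusted, all with lower means in MaeaCsf1r-Cre libraries, against 13.9% of all genes. Of the 17, 12 had a log2 change below 0, against 60.9% of all genes, and the median change was -0.24. In all 3 pairs 7 were lower and 2 higher, against 23.5% and 13.2% of all genes, and 0 had groups that did not overlap, against 8.55%. The 4 genes under 0.05 with the block, named after their values were seen, were *Ncoa4*, the receptor for ferritin, *Fundc1*, a receptor on mitochondria, *Fam134b*, a receptor on the endoplasmic reticulum, and *Wdfy3*, which encodes ALFY. Their log2 changes were -0.46, -0.31, -0.64 and -0.25, and the adjusted p with the block, from limma, was 0.232, 0.274, 0.281 and 0.350. *Calcoco2*, which encodes NDP52, was listed at 0 in every library.

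The enzymes that trim and lipidate LC3 and GABARAP, 12 tested of 12, had 9 changes below 0 and a median of -0.062. *Atg4c*, which encodes one of the 4 ATG4 proteases, was the 1 gene of 12 whose values did not overlap, against 8.55% of all genes. It was at 7.83, 8.56 and 7.27 CPM in control and at 6.68, 5.32 and 4.98 CPM in MaeaCsf1r-Cre libraries, a change of -0.42 with a standard error of 0.19 (limma adjusted p = 0.967). The other 3 protease genes, *Atg4a*, *Atg4b* and *Atg4d*, had changes of -0.066, 0.027 and 0.044.

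Adaptors that tie LC3 or GABARAP to transport and fusion, 12 tested of 12, had 10 changes below 0 and a median of -0.18. *Fnip1*, whose product works with folliculin, had a mean of 15.8 ± 0.947 CPM in control and 12.8 ± 1.69 CPM in MaeaCsf1r-Cre libraries (SD, n = 3 each). *Fyco1*, which links LC3 on vesicles to kinesin, had 8.44 ± 0.980 and 7.18 ± 0.570 CPM (SD, n = 3 each). The groups did not overlap for these 2 of 12 genes, against 8.55% of all genes, both lower in MaeaCsf1r-Cre libraries, and both had an adjusted p of 0.967 by limma.

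Kinases and transcription factors that act on receptors or on LC3 genes, 12 tested of 12, had 8 changes below 0 and a median of -0.017. *Csnk2b*, the regulatory subunit of casein kinase 2, was the 1 of 12 without overlap, against 8.55% of all genes, and was higher in every MaeaCsf1r-Cre library, with 67.6 ± 3.36 CPM in control and 78.8 ± 8.39 CPM in MaeaCsf1r-Cre libraries (SD, n = 3 each), a change of 0.21 (limma adjusted p = 0.967). *Tbk1*, the kinase of optineurin, had a change of 0.0011. Of the genes of these last 3 groups 0 had an adjusted p under 0.05 in either limma fit, and 0 an unadjusted p under 0.05 without the block. With the block each group had 1 of 12 genes under 0.05 unadjusted, against 13.9% of all genes, namely *Atg4c*, *Tbc1d5* and *Foxo3*, the last pair named after their values were seen.

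Some markers of other cell types were lower in MaeaCsf1r-Cre libraries, and 0 of those tested had an adjusted p under 0.05 in either limma fit. Summed CPM of 10 macrophage markers were 57.1 to 139 in control and 33.1 to 96.6 in MaeaCsf1r-Cre libraries. Of the 7 tested, 6 had a log2 change below 0, against 60.9% of all genes. At an unadjusted p under 0.05 by limma 4 of 7 were lower and 0 higher without the block, against 3.99% of all genes. With the block 6 of 7 were lower and 0 higher, against 13.9%. The 1 that was higher, by 0.12, was *Slc40a1*, with 47.3 ± 25.6 CPM in control and 50.5 ± 22.0 CPM in MaeaCsf1r-Cre libraries (SD, n = 3 each). For 3 of 7 the groups did not overlap, against 8.55% of all genes. These were *C1qa*, *C1qb* and *C1qc*, lower in every MaeaCsf1r-Cre library. For *C1qb* the means were 6.05 ± 2.66 CPM in control and 0.169 ± 0.264 CPM in MaeaCsf1r-Cre libraries (SD, n = 3 each). The adjusted p of *C1qb* was 0.194 by limma. *Csf1r*, which encodes the receptor that macrophages need, was counted with the granulocyte and monocyte markers. It was the 1 of 4 tested there without overlap, against 8.55% of all genes, and was lower in every MaeaCsf1r-Cre library. Its means were 4.53 ± 2.96 CPM in control and 0.896 ± 1.12 CPM in MaeaCsf1r-Cre libraries (SD, n = 3 each), with an adjusted p of 0.967 by limma. The 6 B lineage markers summed to 33.3 to 55.0 CPM in control and 13.3 to 26.4 CPM in MaeaCsf1r-Cre libraries, of which *Ighm* had a mean of 17.9 CPM in control and 1.12 CPM in MaeaCsf1r-Cre libraries, with *Pax5* listed at 0 in every library. The 7 granulocyte and monocyte markers summed to 29.5 to 236 and 4.54 to 118 CPM, with *Ly6g* listed at 0. The 4 T lineage markers summed to 1.58 to 3.16 and 0.272 to 1.58 CPM, with *Cd3e*, *Cd3d* and *Cd8a* at or near 0. *Cd4*, the 1 of these 4 that was tested, made up most of each sum. Erythroid markers summed to 213 to 731 and 263 to 660 CPM, and megakaryocyte markers to 213 to 969 and 284 to 593 CPM. The part of these cells in the values was not tested either.

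Changes across all genes also moved with gene length. Over 12473 genes with a length, the log2 change and the exonic length had a Spearman's rho of -0.263, across genes that are not independent replicates. With these genes split by length into 4 bins of like size, the median change was, from the shortest to the longest bin, 0.027, -0.042, -0.076 and -0.13, and the bins held 4, 2, 1 and 3 of the 10 genes. With a correction for length 9 of 10 genes still had a change below 0 and their median was -0.18. For single genes the correction moved *Map1lc3a* from -0.096 to -0.20, *Gabarap* from -0.025 to -0.087 and *Tax1bp1* from -0.083 to -0.026, and the other 7 genes by less than 1.5 times.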

How the data were processed

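RNA was sequenced from 3 control and 3 MaeaCsf1r-Cre HSC libraries made with SMART-Seq v4 and Nextera XT. Reads were aligned with STAR 2.5.3a to mm10, assigned to Ensembl transcripts and normalised with Partek software by the authors. Expression was deposited as CPM plus a constant of 0.0001, which was subtracted here. The table had 0 columns without a sample. Of low values 72.0 to 74.0% lay within 0.05 of whole reads at the estimated depths, so whole reads were not recovered for all genes and no count test was used. Whether counting used strand is not given in the sources used here.

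Genes were kept where 3 or more libraries had 1 CPM or more. They were fitted on log2(CPM + 1) with limma 3.58.1 in R 4.3.3, with a mean-variance trend, two-sided, Benjamini-Hochberg adjusted over 12955 genes, with a threshold of 0.05. A fold change on this scale understates the change of low genes. Replicate numbers were taken from the titles of the samples. The titles do not say that a number marks a shared litter, day or batch. Deviations from the group means of libraries with the same number correlated across genes, with Pearson's r of 0.627, 0.523 and 0.397 for numbers 1, 2 and 3. Between unlike numbers r ran from -0.459 to -0.0538. These negative values follow in part from the use of group means, since deviations within a group cancel out for each gene. Because of the positive r of like numbers the replicate number was also used as a block, a choice that rests on these same data. Lengths and sequences come from GENCODE vM21 (GRCm38), which may differ from the annotation the authors used. Shared sequence was searched in 50-base stretches on both strands, and ratios were tested by exact permutation.

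All 10 genes were named, with *Maea* and, from each list of other genes, up to 3 with the smallest p whose groups did not overlap. *Kit*, *Ly6a*, *Slamf1*, *Slc40a1*, *Cd4*, *Tbk1*, *Atg4a*, *Atg4b*, *Atg4d* and genes listed at or near 0 were named beside them, after their values were seen. The genes and lists were chosen with earlier results of these data known. The alternatives were a pseudocount of 0.1, no filter or a filter at 10 CPM, median ratios, quantile normalization, no trend, the replicate block, a length correction by loess with a span of 0.5 with and without the block, and leaving out each library. The procedure was tested on simulated data with independent noise and with changes larger than those of the 10 genes. That test does not show whether changes as small as theirs would be found. Figures were drawn with matplotlib 3.10.9 in Python 3.11.15.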

Additional observations from a re-analysis of the deposited data

How the results depend on the processing

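Under 16 alternatives 0 of the 10 genes had an adjusted p under 0.05, and the replicate block left that count at 0 and changed no call. The length per principal transcript and the addition of pseudogene CPM were chosen after seeing the data. The change of *Gabarap* turned to 0.038 with median ratios and that of *Map1lc3a* to 0.059 with quantile normalization. Leaving out each library in turn, *Map1lc3a* ran from -0.27 to 0.14, *Gabarap* from -0.074 to 0.051 and *Tax1bp1* from -0.17 to 0.014, while the other 7 genes kept their direction with values that moved by over 1.5 times. They ran from -0.37 to -0.068 for *Map1lc3b*, -0.30 to -0.040 for *Gabarapl1*, -0.29 to -0.13 for *Gabarapl2*, -0.24 to -0.092 for *Sqstm1*, -0.27 to -0.069 for *Nbr1*, 0.17 to 0.85 for *Optn* and -0.57 to -0.017 for *Calcoco1*. The log2 differences in ratio ran from -0.086 to 0.24 for *Map1lc3a* to *Map1lc3b*, from -0.13 to 0.17 for *Gabarapl1* to *Gabarapl2*, from -0.063 to 0.087 for *Sqstm1* to *Nbr1* and from -0.074 to 0.16 for *Sqstm1* to *Map1lc3b*. The cause was not tested. *Map1lc3a* did not enter the fit with the filter at 10 CPM.

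Genes whose groups did not overlap numbered 0 to 3 of 10 on leaving out a library. They were *Gabarapl1* and *Nbr1* without control replicate 1 (28.9% of all genes), *Sqstm1* without control replicate 3 (14.7%), *Optn* without MaeaCsf1r-Cre replicate 2 (18.6%) and *Map1lc3b*, *Gabarapl2* and *Sqstm1* without MaeaCsf1r-Cre replicate 3 (21.8%). Fewer samples leave fewer values to overlap. With the length correction *Sqstm1* was the 1 such gene (7.82%). The median change of the 10 genes ran from -0.23 to -0.055 over the libraries left out. Over all genes tested, 1 had an adjusted p under 0.05, against 0 with the filter at 10 CPM, without control replicate 2 and without control replicate 3, 3 without MaeaCsf1r-Cre replicate 3 and 2 with the length correction and the block. At an unadjusted p under 0.05 there were 517 genes, 1805 with the block, 302 with the filter at 10 CPM and 1138 without a filter. With 3 libraries a group and no block, the 95% intervals were narrowest for *Gabarap* (-0.29 to 0.24) and widest for *Optn* (-0.37 to 1.34). With the block they were narrowest for *Gabarapl1* (-0.36 to 0.066) and widest for *Calcoco1* (-0.90 to 0.28).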
